A study of Arabidopsis thaliana with 11 samples.

Results

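Root tips of the Arabidopsis thaliana line clv2-gabi were set against root tips of the wild type Col-0, using 6 of the 11 RNA sequencing libraries of the series, 3 of clv2-gabi and 3 of Col-0. Every group carries the Col-0 genetic background according to the labels. No group holds a further transgene, Cre line or treatment in the labels, which do not say what the clv2-gabi allele does to the gene. Seedlings grew upright on agar medium with Murashige and Skoog salts and sucrose, in constant light. The comparison took in the 15904 of 28495 listed genes whose 2 group means averaged at least 50 normalised counts, with CLV2 itself set aside. Means are the authors' group means of normalised counts, and a change is log2((clv2-gabi + 1) / (Col-0 + 1)) of those means. A gene was said to rise or fall where the adjusted p-value in the authors' deposited table was under 0.05.

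CLV2 is a receptor-like protein that lies in the plasma membrane and has no kinase domain of its own. It works together with CORYNE (CRN), a membrane-anchored kinase-like protein, in the perception of CLE peptides, and CLE40 is a CLE peptide studied in the root tip. Root hairs are single epidermal cells that grow at their tip, above the meristem, and their walls, their membrane traffic and their water uptake depend on gene sets that switch on as cells leave the meristem. Plant cells short of sugar switch on a further set, the dark-inducible and starvation genes, that break down amino acids and stored carbon.

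The CLV2 transcript was not reduced in the libraries labelled clv2-gabi. Its mean was 198 in Col-0 and 4248 in clv2-gabi, a ratio of 21.44 in the authors' deposited table. The line is therefore called by its label here, and nothing about the loss of CLV2 function is read from the transcript. The means of CRN were 98 in Col-0 and 130 in clv2-gabi, with an adjusted p of 0.803 in the authors' deposited table. CLE40 had a mean of 1 in both groups, too low to be compared.

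The tissue label was checked against defining genes of root tissues. The meristem regulators PLT1 and PLT2 had means of 894 and 619 in Col-0 and of 1080 and 675 in clv2-gabi. The mitotic cyclin gene CYCB1;1 had 912 and 980, and the root cap regulator gene SMB 650 and 778. Of 4 green tissue markers, the Rubisco gene RBCS1A was listed at 0 in Col-0 and 2 in clv2-gabi, the antenna genes LHCB2.1 and LHCA4 had means of 1 and 6 and of 221 and 337, and the Rubisco activase gene RCA had 30 and 40. Genes of the meristem and the root cap were thus present in both groups, with RBCS1A and LHCB2.1 at or near 0. The tables hold group means only, so no value per library, no standard deviation and no depth per library can be given, and a mean can rest on 1 library. The labels do not state whether the libraries of a group came from separate cultures, and the p-values then measure only the spread between these libraries, which may be technical.

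More genes fell than rose in clv2-gabi. Of the 15904 tested genes 319 fell, which is 2.01% of them, and 60 rose, which is 0.377%. The median change of all tested genes was 0.01 on the log2 scale, and the central 95% of them ran from -0.51 to 0.33. The median change was -0.76 among the genes that fell and 0.75 among those that rose. At least 2-fold changes were seen in 77 of the genes that fell and 13 of those that rose. Together the genes that fell made up 1.41% of the summed means in Col-0 and 0.914% in clv2-gabi. Below the filter a further 54 genes passed the threshold, 8 higher and 46 lower. Just inside the filter, at averages of 50 to 60, 16 of 327 genes passed, and just outside it, at 40 to 50, 15 of 382 did. Some genes that fell had a mean under 50 in clv2-gabi and entered the filter through Col-0, and some that rose entered it through clv2-gabi. The counts of lists and families below include such genes.

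**Figure D1:**
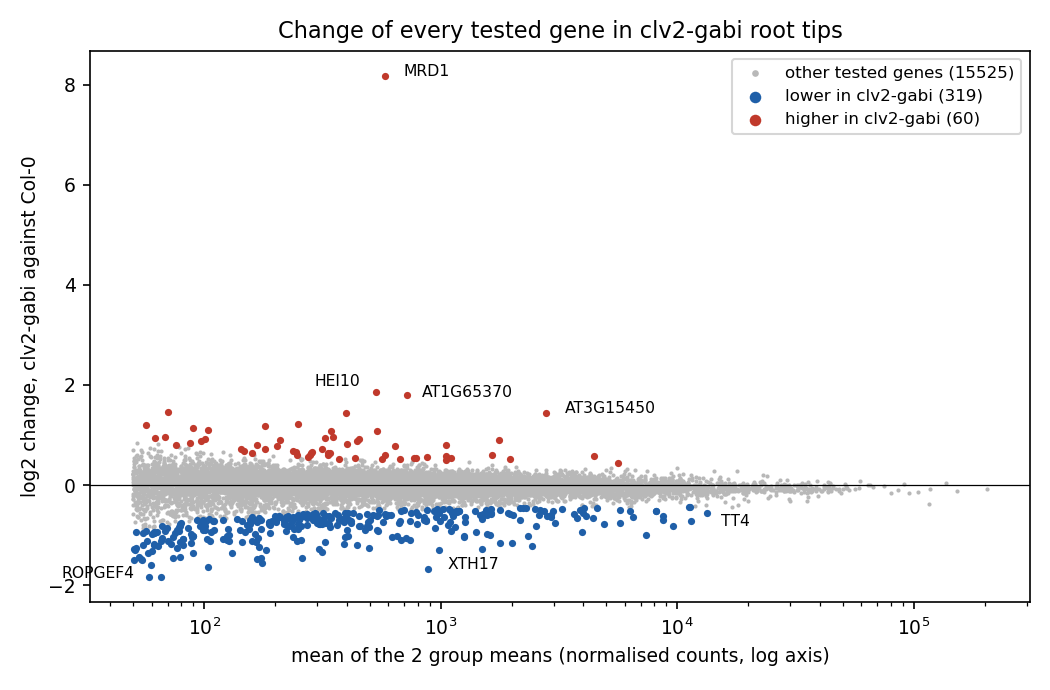
Log2 change of each tested gene (vertical axis) against the average of its 2 group means in normalised counts (horizontal axis, log scale). Blue points are the 319 genes that fell in clv2-gabi, red points the 60 that rose and grey points the other tested genes. CLV2 is not drawn, and MRD1 lies far above all other points.

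The share of falling genes was highest among genes with low means. Of 3261 genes with an average of 50 to 200, 3.37% fell. That share was 1.83% of 7043 genes between 200 and 1000 and 1.43% of 5600 genes from 1000 upward. The smallest fall that passed was -0.63 in the lowest of these ranges and -0.44 in the highest, so smaller changes of weakly expressed genes were not detectable with these libraries.

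Root hair genes were lower in clv2-gabi. Of 38 listed genes of root hair formation and growth, 26 were tested and 10 fell, or 38.5%, none rose, and the median change was -0.35. A change below 0 was found for 25 of the 26, with a range from -1.60 to 0.02. The other 12 members lay below the filter, all 12 with a change below 0, and 2 of them passed the threshold. These counts stand beside 2.01% of all tested genes falling and a median of 0.01. They include ROPGEF4, RSL4, PRP3 and LRX1, which entered the filter through Col-0. The count and median therefore describe the list and are no test of it.

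The falls ran from the regulators to the wall. ROPGEF4, an activator of the ROP GTPases that mark the growing hair tip, had means of 90 in Col-0 and 29 in clv2-gabi, a change of -1.60. Its relative ROPGEF3, which acts at the site where a hair emerges, went from 301 to 198, a change of -0.60. RSL4, the transcription factor that sets hair growth, went from 86 to 34, a change of -1.31. These are genes of tip signalling and of transcriptional control.

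Other genes of the root hair list moved the same way, among them genes of surface proteins. COBL9, a lipid-anchored protein needed for tip growth, went from 434 to 178, a change of -1.28. SHV3, which resembles a phosphodiesterase and shapes the hair wall, went from 1390 to 961, a change of -0.53. RHD2, the NADPH oxidase that makes reactive oxygen at the tip, went from 1166 to 751, a change of -0.63. The wall protein genes PRP3 and LRX1, proline-rich and extensin-type respectively, changed by -1.20 and -1.05. The kinase genes PERK13 and IRE changed by -0.71 and -0.68, with adjusted p-values of 0.03 and 0.047 in the authors' deposited table. Below the filter, the hair expansin gene EXPA7 went from 68 to 22 and RHS18 from 26 to 7, with adjusted p-values of 0 (rounded) and 0.004 in the authors' deposited table.

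The 16 tested root hair genes that did not pass had changes from -0.83 to 0.02, and 15 of them were below 0. RHS19, a peroxidase of root hairs, had means of 72 and 40 and an adjusted p of 0.076 in the authors' deposited table. The arabinogalactan protein gene AGP3, below the filter, had means of 62 and 33 and an adjusted p of 0.057 in the authors' deposited table. The early regulator RHD6, which commits a cell to form a hair, had means of 1009 and 812 and an adjusted p of 0.598 in the authors' deposited table. RSL1 stood at 197 and 182, the bHLH genes LRL1 and LRL2 at 1344 and 1361 and at 956 and 793, and the GTPase gene ROP2 at 1681 and 1383. The cellulose synthase-like gene CSLD3 stood at 5742 and 5019 and the receptor kinase gene FER at 4071 and 3694. ROPGEF4, RSL4, PRP3 and LRX1, which did pass, had means under 50 in clv2-gabi and entered the filter through Col-0.

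**Figure D2:**
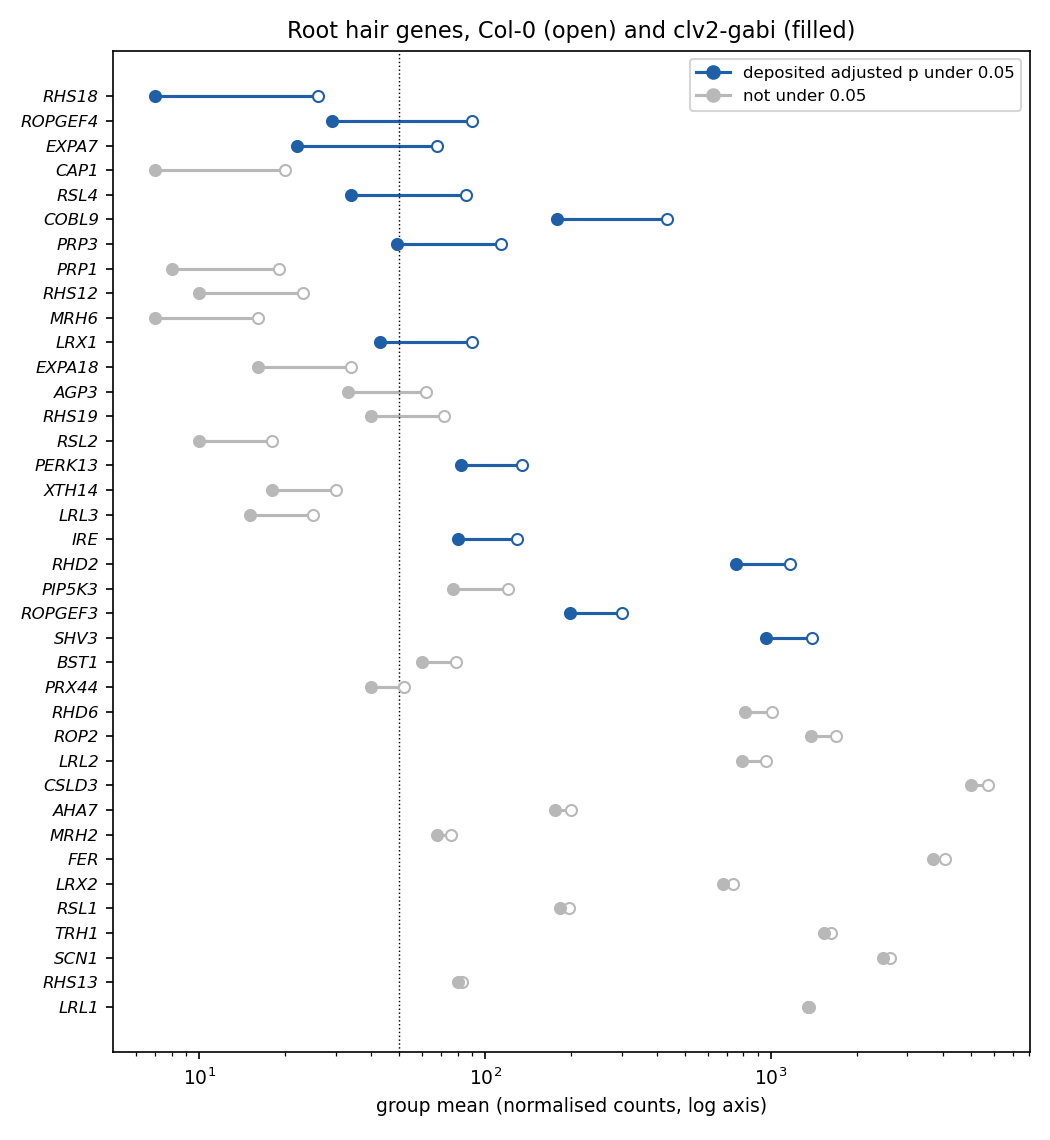
Group means of the 38 root hair genes in normalised counts (horizontal axis, log scale), open circles for Col-0 and filled circles for clv2-gabi, ordered by change. Blue marks genes with a deposited adjusted p under 0.05, the dotted line marks 50, and 37 of the 38 filled circles lie to the left of their open circle, LRL1 being the exception.

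None of the epidermal patterning genes passed. All 12 listed genes of epidermal cell fate were tested, and their median change was 0.03. The non-hair genes WER and GL2 had means of 1289 and 1361 and of 835 and 883 in Col-0 and clv2-gabi, and the hair-promoting gene CPC had 438 and 414. The lowest change was that of ETC1, a CPC relative, at -0.35, and the highest that of the receptor-like kinase gene SUB at 0.19. In bulk tissue, fewer root hair cells and less RNA per root hair cell cannot be told apart.

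The root hair element (RHE) is a short promoter element described in genes that are active in root hair cells. It was searched on both strands from 250 bases before to 50 bases after each annotated gene start of TAIR10.1, with the sequences read from the RefSeq assembly. It was found in 8 of 313 promoters of genes that fell (2.56%), in 5 of 77 of those that fell at least 2-fold (6.49%) and in 1 of 60 of those that rose (1.67%). Over all 26696 promoters the share was 0.877%, and over the tested genes it was 0.815%. Among the 38 root hair genes 10 held it, or 26.3%, which is no independent count, since the element was defined in genes of this kind. Without the root hair list, 4 of 303 falling genes held it (1.32%) and 2 of 72 that fell at least 2-fold (2.78%), against 0.784% of the tested genes. The 250 bases before the start are shown for 3 root hair genes that fell, with the matching bases in capitals, and read 5′ to 3′ on the strand of the gene.

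ROPGEF4, chr2:18883127-18883376, plus strand: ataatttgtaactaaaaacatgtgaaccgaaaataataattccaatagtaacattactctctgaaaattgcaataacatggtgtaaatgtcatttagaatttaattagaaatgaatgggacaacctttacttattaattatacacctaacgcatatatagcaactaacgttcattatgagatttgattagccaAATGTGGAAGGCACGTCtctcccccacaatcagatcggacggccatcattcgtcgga
PRP3, chr3:23182472-23182721, plus strand: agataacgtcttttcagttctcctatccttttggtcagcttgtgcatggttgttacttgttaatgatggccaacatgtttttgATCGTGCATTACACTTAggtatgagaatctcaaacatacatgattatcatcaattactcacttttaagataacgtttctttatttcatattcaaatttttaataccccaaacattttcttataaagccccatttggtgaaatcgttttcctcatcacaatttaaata
LRX1, chr1:4069742-4069991, plus strand: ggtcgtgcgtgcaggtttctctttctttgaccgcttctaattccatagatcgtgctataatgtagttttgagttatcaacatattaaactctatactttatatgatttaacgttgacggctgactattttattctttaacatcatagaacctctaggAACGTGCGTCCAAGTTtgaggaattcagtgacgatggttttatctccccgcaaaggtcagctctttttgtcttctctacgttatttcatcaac

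In ROPGEF4 the element lies on the strand of the gene and begins 57 bases before the start, while in PRP3 and LRX1 it lies on the opposite strand, 167 and 93 bases before the start. The other 5 genes that fell and hold the element are shown by the element alone, read 5′ to 3′ on the strand that carries it, with its core in capitals.

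PERK13, a kinase of root hairs: ttattggagGCACGtc
AT3G09925, a protein of the Pollen Ole e 1 and extensin family: taaatggaccGCACGta
AT3G01190, a class III peroxidase: ttcgtgtgtcTCACGtc
FUT5, a fucosyltransferase: aaagtggaaTCACGtt
AT1G51850, a leucine-rich repeat kinase: aatatgtttTCACGat

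The core was GCACG in 5 of these 8 promoters and TCACG in the other 3. The changes of the 8 genes ran from -1.60 for ROPGEF4 to -0.67 for AT1G51850. A match describes these letters only and is no evidence that a factor binds there. The G-box, CACGTG, was present in 13 of 313 promoters of falling genes (4.15%) and 5 of 60 of rising genes (8.33%). Its share was 7.79% over all promoters and 8.99% over the tested genes. The evening element, AAAATATCT, was present in 7 of 313 (2.24%) and 3 of 60 (5%), against 2.86% of all promoters and 2.94% of the tested genes. The RHE cannot hold a G-box at its own core, because the base that would complete it is not allowed there.

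Enzymes and proteins of the cell wall were among the genes that fell. In 7 wall families together 48 of 253 tested members fell, or 19.0%, against 2.01% of all tested genes, so that 48 of the 319 falls lay in these families. Of 13 xyloglucan endotransglucosylase/hydrolase (XTH) genes tested, whose enzymes cut and rejoin the wall polymer xyloglucan, 7 fell and none rose, with a median of -0.49. XTH17 went from 1349 to 424, a change of -1.67, XTH21 from 531 to 258, a change of -1.04, and XTH18 from 1439 to 761, a change of -0.92. XTH30 and XTH15 changed by -0.81 and -0.79, and XTH19 and XTH8 by -0.55 and -0.49. XTH17 was the furthest from the rest of the family.

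Class III peroxidases, which cross-link or loosen the wall, fell in 11 of 31 cases and rose in none, with a median of -0.33. That is 35.5% of them, beside 2.01% of all tested genes falling. AT1G05240 went from 103 to 28, AT1G30870 from 157 to 50 and AT3G49960 from 116 to 42, changes of -1.84, -1.63 and -1.44. AT5G64100 changed by -1.30, AT5G17820, from 2122 to 874, by -1.28, AT3G01190, from 5209 to 2711, by -0.94, and AT3G21770 by -0.90. Reads of AT1G05240 and its neighbour AT1G05250, which changed by -0.91, may have been split between them. Of the 50-base windows of their exons, 41.1% and 0% respectively occur once in the genome. AT1G05240, AT1G05250 and AT3G49960 had means under 50 in clv2-gabi and entered the filter through Col-0, and they count among the 11 that fell.

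Structural wall proteins fell in part. Of 89 extensins and proline-rich proteins 13 fell (14.6%), against 2.01% of all tested genes. None rose, and the family median was -0.06. AT2G47540 went from 381 to 138, a change of -1.46, MOP10 from 84 to 32, a change of -1.36, and AT3G54580 from 1398 to 568, a change of -1.30. MOP10 and AT3G09925, the latter from 72 to 29, had means under 50 in clv2-gabi and entered the filter through Col-0. They need not be the only such members, and the counts of this family and of the wall families include them. By count, the fall of AT3G28550 was among the largest, from 12242 to 6987. Of the exon windows of AT3G28550 75.9% were unique, and of those of AT3G54580 69.9%.

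Arabinogalactan proteins, heavily glycosylated proteins of the cell surface, fell in 8 of 35 cases (22.9%) with a median of -0.28. AGP2 went from 3140 to 1546, AGP13 from 872 to 429 and AGP24 from 2093 to 1058, changes of -1.02, -1.02 and -0.98. AGP22, AGP14, AGP21, FLA16 and AGP7 changed by -0.94 to -0.52. FLA9, a relative of FLA16 that also fell, was missed by the search on product names and is not counted. Expansins, which loosen walls in growing cells, fell in 3 of 16 cases (18.8%), EXPB1, EXLA2 and EXPA17, by -0.60, -0.59 and -0.57. None of either family rose, and 2.01% of all tested genes fell.

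Of 33 pectin methylesterases and their inhibitors 3 fell (9.09%), led by PME2 from 705 to 294, a change of -1.26. Of 36 pectin lyases and polygalacturonases 3 fell (8.33%) and 1 rose (2.78%). The riser was RCPG, a polygalacturonase of the root cap, from 768 to 1339, a change of 0.80. These shares stand beside 2.01% of all tested genes falling and 0.377% rising.

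Dirigent proteins, which steer lignan and lignin coupling, fell in 4 of 10 cases (40%) with a median of -0.36, led by AT3G13650 from 78 to 28 and AT4G11210 from 837 to 409. AT3G13650 had a mean under 50 in clv2-gabi and entered the filter through Col-0. Small proteins of the lipid-transfer type fell in 11 of 27 cases (40.7%) with a median of -0.43. Both shares stand beside 2.01% of all tested genes falling. AT2G44300 changed by -1.24, AT5G46890, from 3400 to 1455, by -1.22 and AT5G46900, from 2473 to 1102, by -1.17. The largest fall in count of the family was that of AT4G12520, from 9785 to 4919. It and its neighbour AT4G12510, from 2758 to 1245, had 41.9% and 48.2% of unique exon windows, and the reads of such pairs cannot be placed with certainty.

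**Figure D3:**
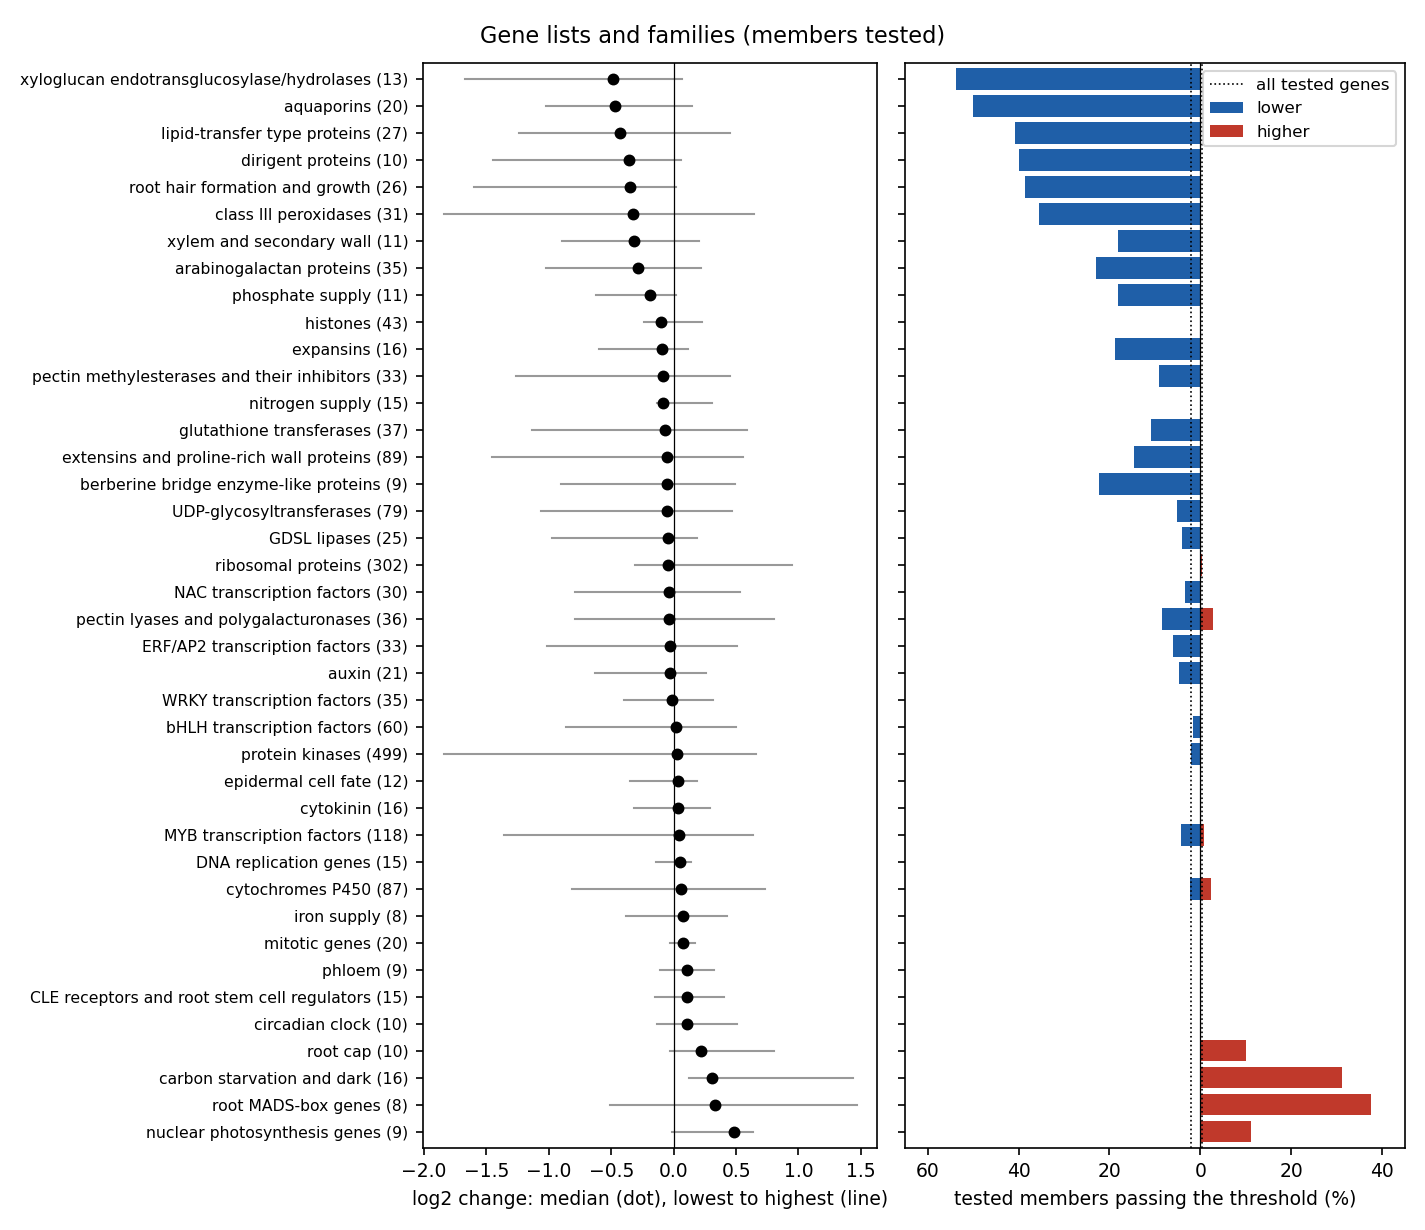
Gene lists and families with at least 8 tested members, with the number tested in brackets. On the left, the median log2 change (dot) and the lowest to highest change (line). On the right, the percentage of tested members that fell (blue, to the left) or rose (red, to the right), with dotted lines at 2.01% and 0.377% of all tested genes. XTH genes, aquaporins and lipid-transfer type proteins have the lowest medians, and the photosynthesis, MADS-box and carbon starvation lists the highest.

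Aquaporins, the water channels of the plasma membrane (PIP) and the vacuole membrane (TIP), fell in 10 of 20 cases (50%) and rose in none. Their median was -0.47, and 2.01% of all tested genes fell. PIP1A went from 1684 to 828, PIP2E from 311 to 168 and PIP2;4 from 436 to 243, changes of -1.02, -0.88 and -0.84. TIP4;1 went from 3800 to 2255, a change of -0.75, and GAMMA-TIP from 2674 to 1650, a change of -0.70. The phosphate importer genes PHT1;1 and PHT1;4 went from 548 to 356 and from 624 to 413, changes of -0.62 and -0.59. They were the 2 that fell of 11 tested phosphate genes (18.2%), whose median was -0.19, and 57.5% of the exon windows of PHT1;1 were unique. No gene of the nitrogen list (15 tested, median -0.08) or the iron list (8 tested, median 0.08) passed.

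Xylem genes were among those that fell. Of 11 tested genes of xylem and secondary walls, 2 fell (18.2%), against 2.01% of all tested genes, and the median was -0.32. A change below 0 was found for only 7 of the 11, with a range from -0.89 to 0.20. XCP2, a peptidase of dying xylem cells, went from 129 to 69, a change of -0.89, and GXMT1, which methylates the xylan of secondary walls, from 1847 to 1148, a change of -0.69. Below the filter the secondary wall cellulose synthase gene IRX1 (CESA8) went from 19 to 5, with an adjusted p of 0.028 in the authors' deposited table. Outside the list, GXM2, from 263 to 89, and MAP70-5, a microtubule protein, from 80 to 28, were among the 15 largest falls, at -1.55 and -1.48. MAP70-5 had a mean under 50 in clv2-gabi and entered the filter through Col-0.

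Flavonoid and phenylpropanoid enzymes, a list put together after their values had been seen, fell in 9 of 20 tested cases with a median of -0.38. That count stands beside 2.01% of all tested genes falling and, given how the list was chosen, is a description only. The entry enzyme gene PAL1 went from 7194 to 4234, a change of -0.76. The chalcone synthase gene TT4 went from 15938 to 10766, a change of -0.57 and one of the 5 largest falls in count, and TT5, TT7 and FLS1 changed by -0.79, -0.71 and -0.61. The lignin branch genes 4CL1, CAD5 and CCoAOMT1 changed by -0.69, -0.57 and -0.50. PAL2, C4H and F3H, with means of 1659 and 1359, 8308 and 7111, and 7090 and 5688, did not pass. The other large falls in count were those of SAHH2, an enzyme of the methylation cycle, from 14203 to 8658, and of the acid phosphatase family gene AT1G04040, from 10779 to 6618.

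Families of other enzymes were read against the 2.01% of all tested genes that fell. UDP-glycosyltransferases fell in 4 of 79 cases (5.06%), led by UGT84A1, which glucosylates phenylpropanoid acids, at -1.06. Glutathione transferases fell in 4 of 37 cases (10.8%), led by ERD9 at -1.13. Cytochromes P450 fell in 2 and rose in 2 of 87 (2.30% each). Berberine bridge enzyme-like proteins fell in 2 of 9 cases (22.2%) and GDSL lipases in 1 of 25 (4%). The medians of these families ran from -0.07 to 0.06.

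Regulators gave falls in some families. Of 118 MYB-type genes 5 fell (4.24%) and 1 rose, with MYB86 from 189 to 73, a change of -1.36, and MYB61 from 111 to 52, a change of -1.08. Of 499 protein kinase genes 10 fell and none rose, 2% of the tested members and so close to the 2.01% of all genes. They were led by AT2G41970, from 92 to 25, and the leucine-rich repeat kinase gene AT3G21340, from 75 to 26, changes of -1.84 and -1.49. AT2G41970 and AT3G21340 had means under 50 in clv2-gabi and entered the filter through Col-0. Of 33 ERF/AP2 genes 2 fell (6.06%), of 30 NAC genes 1 (3.33%), of 60 bHLH genes 1 (1.67%) and of 35 WRKY genes none. The lowest change among these 60 bHLH genes was -0.86. The search by product name thus left out the bHLH gene RSL4, which fell from 86 to 34.

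Genes of carbon shortage rose. Of 23 listed genes 16 were tested, 5 rose, or 31.3%, none fell, and the median change was 0.31. All 16 had a change above 0, from 0.12 to 1.43. These counts stand beside 0.377% of all tested genes rising. AT3G15450, which codes for a protein with YGL and LRDR motifs, went from 1501 to 4058, the largest rise in count, a change of 1.43. DYL1, a dormancy marker, went from 149 to 350, a change of 1.23, and DIN10, a dark-inducible raffinose synthase family gene, from 1235 to 2296, a change of 0.89. TPS8 and TPS11, of the trehalose phosphate synthase family, changed by 0.66 and 0.57, with adjusted p-values of 0.011 and 0.048 in the authors' deposited table.

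Of the 7 members below the filter, 2 passed the threshold. The changes of these 7 ran from -0.58 to 2.81, and 1 was below 0. ASN1, the asparagine synthetase that stores nitrogen when carbon is short, had means of 6 in Col-0 and 48 in clv2-gabi, and the dormancy gene DRM2 had 3 and 15, with adjusted p-values of 0 (rounded) and 0.039 in the authors' deposited table. The 11 tested members that did not pass had changes from 0.12 to 0.37. Among them were the enzymes of branched-chain amino acid breakdown IVD, at 945 and 1164, MCCA, at 535 and 675, and DIN4, at 663 and 755.

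Further genes that rose lay outside the list. ERD5, the proline dehydrogenase, went from 4795 to 6482, and AT1G30820, a CTP synthase, from 3554 to 5320, both among the 5 largest rises in count, with changes of 0.43 and 0.58. MIOX2, which opens the ring of myo-inositol, went from 344 to 728, a change of 1.08. NUDT8, a nudix hydrolase, went from 66 to 142, and ATCTH, a zinc finger gene, from 220 to 469, changes of 1.09 and 1.09. AT5G21940, AT5G65207, AT3G10020 and AT3G15630, for which no role is given here, were among the 15 largest rises at 1.44, 1.19, 1.19 and 0.95.

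The MADS-box genes SVP, SOC1 and AGL42 rose in the root tip. They are 3 of 8 tested root MADS-box genes, beside 0.377% of all tested genes rising, and the other 5 did not pass, with changes from -0.51 to 0.42. SVP, a repressor of flowering in shoots, went from 37 to 104, a change of 1.47, SOC1, an activator of flowering in shoots, from 46 to 91, a change of 0.97, and AGL42 from 195 to 297, a change of 0.60. SVP and SOC1 passed the filter through clv2-gabi, their Col-0 means being under 50, so the count and the list median of 0.33 support nothing about the list.

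Of the photosynthesis genes, 1 passed. Of 9 tested nuclear photosynthesis genes 1 rose (11.1%), beside 0.377% of all tested genes rising, and the median was 0.49. It was LHCA4 of the photosystem I antenna, from 221 to 337. CAO, a part of the particle that delivers antenna proteins to the thylakoid, went from 56 to 124, a change of 1.13, while NPQ4, an antenna-type protein of photoprotection, fell from 197 to 115. Both lie outside the list and were chosen after their values were seen. The other 23 of 32 listed photosynthesis genes lay below the filter and none of them passed.

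No gene of the meristem lists passed. None of 20 mitotic genes and none of 15 DNA replication genes passed, with medians of 0.08 and 0.05 and a highest change of 0.17. Of the CLE receptors and root stem cell regulators 15 of 19 were tested, none passed and the median was 0.11. The receptor kinase genes BAM1 and CLV1 had means of 3688 and 4011 and of 121 and 119 in Col-0 and clv2-gabi, RPK2 had 389 and 441, and ACR4 had 274 and 310. PLT1 had 894 and 1080, PLT2 619 and 675, and the quiescent centre gene WOX5, below the filter, 12 and 13. A value that missed the threshold does not show that these genes did not differ.

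Lists of other cell types and signals gave few calls, to be read beside 0.377% of all tested genes rising and 2.01% falling. Of 10 root cap genes RCPG alone rose, and the median was 0.22. No gene of 9 tested phloem genes (median 0.11), 3 tested endodermis genes (median -0.17), 16 cytokinin genes (median 0.03) or 10 clock genes (median 0.11) passed. Of 21 auxin genes 1 fell (4.76%), the repressor gene IAA14, from 399 to 258, and the median was -0.03. IAA28, a related repressor gene outside the list that was chosen after its values were seen, fell from 624 to 352. Of 302 ribosomal protein genes 1 rose and none fell, with a median of -0.05, and none of 43 histone genes passed, with a median of -0.10. The root hair, wall and xylem genes that fell thus stood beside root cap and mitotic lists with medians slightly above 0. The part of a different mix of root zones in these changes was not tested, and the sources used here do not give the length of root collected.

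The largest rise of all was that of MRD1, a gene named for its response in a methionine-overproducing line. Its mean was 3 in Col-0 and 1154 in clv2-gabi, a change of 8.17. Its neighbour HEI10, known for crossover formation in meiosis, went from 230 to 838, a change of 1.86. The annotations of MRD1 and HEI10 overlap by 1446 bases on opposite strands. The sources used here do not say whether strand was used in the counting, and without it reads of MRD1 and HEI10 cannot be told apart there, so the rise of HEI10 is uncertain. With CLV2 set aside, they were the only adjacent genes that both rose.

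The genes next to CLV2 differed from each other. AT1G65370, a TRAF-like gene, is read in the opposite direction, and its annotated start lies 395 bases from that of CLV2. It went from 321 to 1123, 3.5-fold in the authors' deposited table, with an adjusted p that rounds to 0. On the other side, ABCI13, NPQ7, ARI8 and GTB1 had means of 450 and 451, 126 and 133, 981 and 978, and 3398 and 3863 in Col-0 and clv2-gabi, and none passed. UBQ13 stood at 26 and 21, and AT1G65346, AT1G65352, AGL23 and PP2-A5 were listed at 0 in both groups. Of these 10 loci, 5 on each side, 5 were tested and 1 rose.

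Within 1 Mb of CLV2 3 of 255 tested genes rose (1.18%) and 10 fell (3.92%), against 0.377% and 2.01% of all tested genes. XTH17 starts 29.7 kb from the CLV2 start and RCPG 89.2 kb from it. RHS8, a root hair specific gene that went from 109 to 39, starts 756 kb away. Across the 5 chromosomes, between 1.72% of the tested genes on chromosome 3 and 2.68% on chromosome 4 fell. On chromosome 4 only 3 of 2384 genes rose, or 0.126%. Of the genes that fell, 30 stood in 15 adjacent pairs, and in 6 of these pairs both genes carry 1 product name, as in the peroxidase pair AT1G05240 and AT1G05250.

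**Figure D4:**
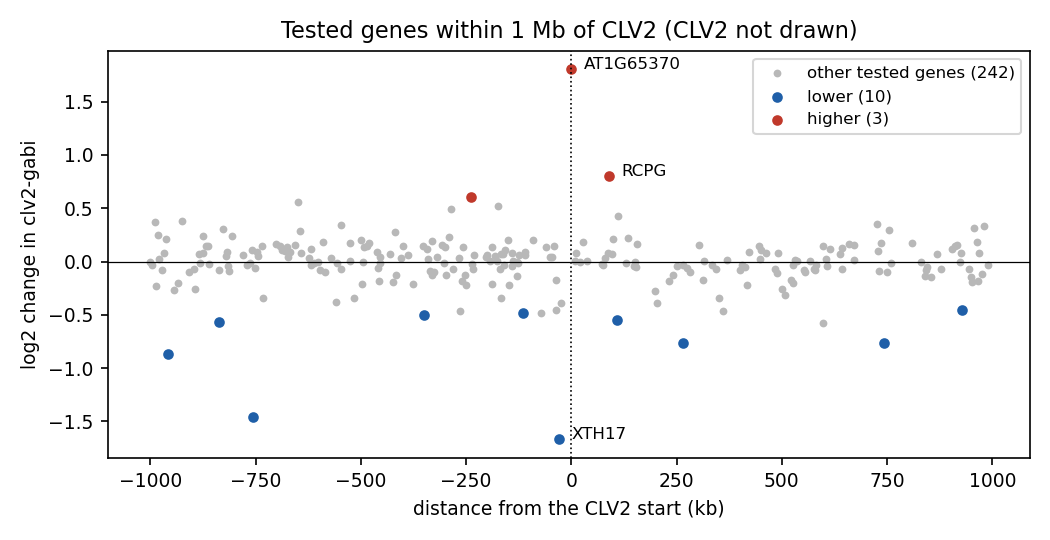
Log2 change of the 255 tested genes within 1 Mb of CLV2 (vertical axis) against the distance of each annotated start from that of CLV2 in kb (horizontal axis). Red points are the 3 genes that rose, blue points the 10 that fell, the dotted line is the CLV2 start, and AT1G65370 and XTH17 mark the highest and the lowest change.

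The same genes were read in the tables of crn-3, a line of the kinase-like partner with 2 libraries, and of cle40-2, a line of the peptide gene with 3 libraries. All comparisons share the Col-0 libraries, so no overlap or correlation between them is given, and differences between the lines were not tested. Under the same filter and threshold 0.495% of tested genes passed in crn-3 and 5.38% in cle40-2. MRD1 changed by 6.45 in crn-3 and by 0 in cle40-2, and HEI10 by 1.42 and -0.08. AT1G65370 changed by 0.28 and -0.14, and did not pass in either.

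The root hair list had a median of -0.27 in crn-3 and 0.11 in cle40-2, against -0.35 in clv2-gabi. For crn-3 and cle40-2 no median of all tested genes was computed, so their list medians cannot be read as shifts. ROPGEF4 changed by -1.12 in crn-3 and 0.15 in cle40-2, passing in neither. PRP3 changed by -1.17 and 1.02 and passed in both, with adjusted p-values of 0.011 and 0 (rounded) in the authors' deposited tables. LRX1 changed by -0.58 and 1.22 and passed in cle40-2 only. The peroxidase gene AT3G49960 changed by -0.92 and 0.92 and passed in cle40-2 only. These 4 genes were chosen among the hair and wall genes, and others lay below 0 in both lines. RHD6 changed by -0.29 in crn-3 and -0.32 in cle40-2, RSL1 by -0.04 and -0.46, and the peroxidase gene AT5G17820 by -0.89 and -0.18.

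Among the rises, the carbon starvation list had medians of 0.21 in crn-3 and 0.10 in cle40-2, likewise without a median of all genes beside them. AT3G15450 changed by 0.62 and -0.36 and passed in crn-3. DIN10 changed by 0.27 and -0.08 and DYL1 by 0.32 and 0.19, and neither passed in either line. SVP changed by 0.74 and -0.70, and AGL42 by 0.20 and -1.51, of which the last passed. Among the falls, XTH17 changed by -0.74 and -0.40 and PIP1A by -0.90 and 0.10, and both passed in crn-3 only.

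**Figure D5:**
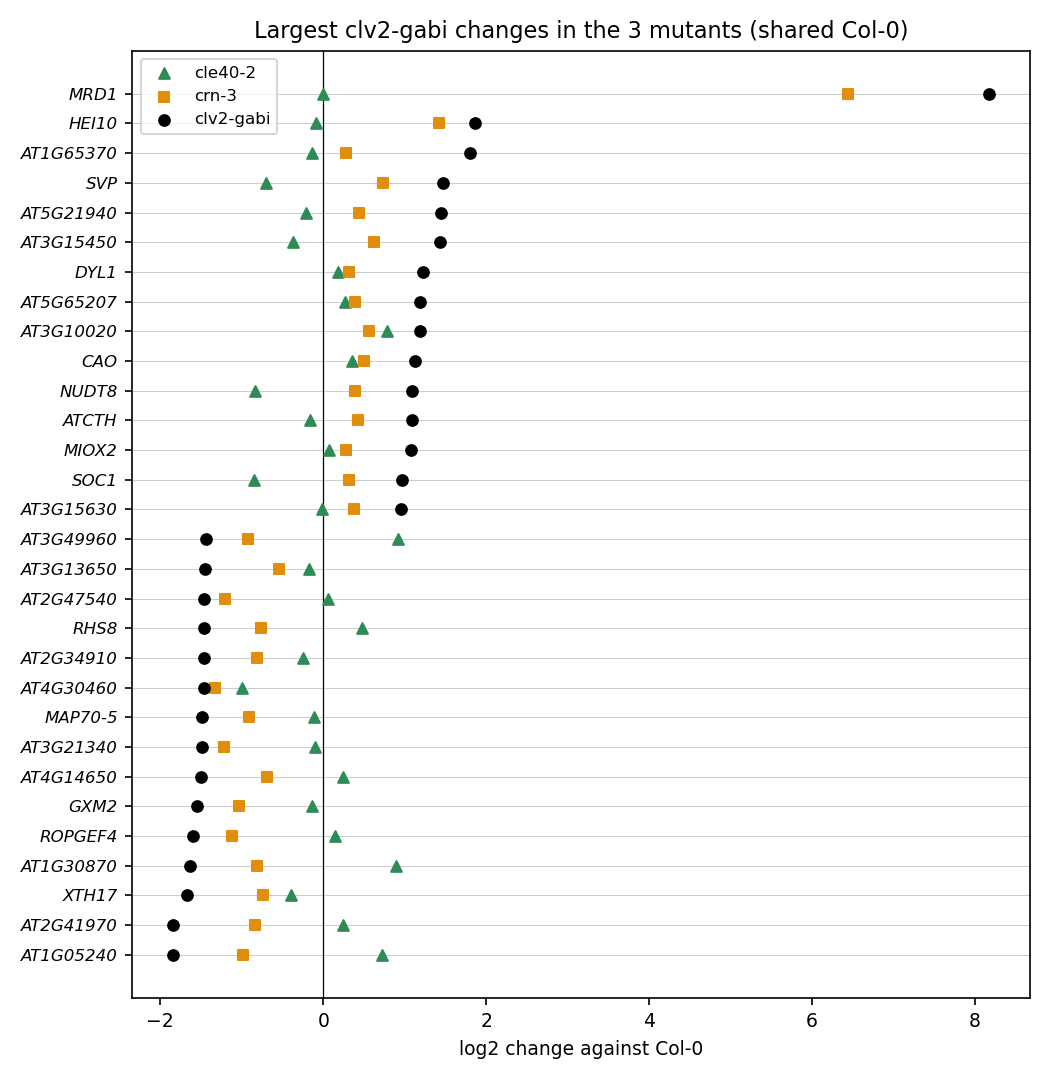
Log2 change against Col-0 (horizontal axis) of the 15 largest rises and 15 largest falls of clv2-gabi, shown for clv2-gabi (black circles), crn-3 (orange squares) and cle40-2 (green triangles). The clv2-gabi points chose the genes and are a description. MRD1 stands at 8.17 in clv2-gabi, 6.45 in crn-3 and 0 in cle40-2.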

How the data were processed

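Root tip RNA was sequenced by the submitters, whose processing notes name CASAVA 1.8.2, DESeq (no version) and TAIR10. Of the aligner, the counting tool and its use of strand nothing is stated in the sources used here. Group means of normalised counts were deposited by the authors as whole numbers, treated here as a score and fitted with no count model. The fold in the deposited table is the authors' ratio. Adjusted p-values come from the deposited table, where 3 decimals are printed and 0 stands for a value rounding to 0. Depth per library is unknown and no own test was run. Of 28495 loci 28008 matched the TAIR10.1 annotation, whose symbols, product names and coordinates were used. Own values were log2 changes with a pseudocount of 1, for genes with an average of at least 50, computed with Python 3.11.15, pandas 2.3.3 and numpy 2.4.6 and drawn with matplotlib 3.10.9. The counting and motif search were tested on simulated data.

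The genes and lists were chosen with earlier results of these data known. The rule for named genes took CLV2, CRN, CLE40 and the 5 loci on each side of CLV2, the 15 largest rises and falls, the 5 largest rises and falls in count, up to 8 members per list or family that passed, and any member of the root hair, cell fate, CLE receptor and carbon starvation lists. Families were found by product name, which misses members spelled otherwise, such as DELTA-TIP, RSL4 and FLA9. Of the list members, 5 with another symbol in the annotation were dropped. Of the genes that fell 202, and of those that rose 46, belong to no list or family. Reads of near-identical genes were examined by the share of 50-base exon windows that occur once in the genome, over 90% for 352 of 377 genes. Of these 377 genes 90 overlap another annotated gene, whose reads cannot be told apart where strand was not used.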

Additional observations from a re-analysis of the deposited data

How the results depend on the processing

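No paired analysis was possible because the tables hold group means only, and for the same reason leaving out each replicate and the replicate block were not run. The counts of 60 higher and 319 lower genes became 37 higher at an adjusted p under 0.01, 209 lower at an average of at least 200, and 13 higher and 77 lower with at least 2-fold changes, each by construction a stricter choice. The root hair median became -0.66 with an average of at least 10, which adds weakly expressed members. The share of falling genes with an RHE became 0.958% on the forward strand only. All promoters then stood at 0.472% and the tested genes at 0.42%. Of 487 recomputed values 470 stayed within 1.5 times (counts and shares) or 0.1 (log2 medians), 17 moved further, and none of 128 recomputed medians changed sign. Part of this was fixed in advance and is no evidence of stability. Another pseudocount cannot change how many members of a list passed. Centring shifts every list median by the same 0.01, which is under the limit of 0.1, and can hardly change a count. Leaving out genes within 1 Mb of CLV2 or keeping CLV2, both chosen after seeing the data, moved neither count by over 1.5 times. Without values per library, no error of a single gene can be given.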

Other observations

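Product names that hold the words root hair specific, looked up after the values were seen, covered 15 genes, of which 6 were tested, 4 fell and none rose. Of all tested genes 2.01% fell. This set shares members with the root hair list, among them RHS13, RHS18 and RHS19, and is no separate support for it. AT2G34910 went from 255 to 92 and RHS8 from 109 to 39, changes of -1.46 and -1.46, and RSH2 from 215 to 132, a change of -0.70. Below the filter RHS16 went from 61 to 27, with an adjusted p of 0.005 in the authors' deposited table. All 9 members below the filter had a change below 0.

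The annotated length of the genes that fell was shorter than that of all tested genes, with medians of 1843 and 2534 bases. The genes that rose had a median length of 2150.5 bases. Of the other genes that rose, 3 are given here, picked after their values were seen, and they support nothing about carbon genes. MLS, the malate synthase of the glyoxylate cycle, went from 845 to 1258, the root malate exporter gene ALMT1 from 1319 to 1988, and BMY3, of the beta-amylase family, from 471 to 811.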
